A study of Mus musculus with 4 samples.

Results

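Integrins are the cell surface receptors that attach cells to the extracellular matrix, and 10 genes encoding subunits found on tumour cells of epithelial origin were followed: 5 α subunits (Itga2, Itga3, Itga5, Itga6, Itgav) and 5 β subunits (Itgb1, Itgb3, Itgb4, Itgb5, Itgb6). The selection rule is a list of gene names and uses no measured value. This list and the further gene lists below were, however, chosen with earlier results of these data known. All 10 genes had an entry among the 12967 gene symbols of the deposited data. The material was RNA recovered by immunoprecipitation from 4T1, a mouse mammary carcinoma cell line, grown under puromycin and stably carrying a scrambled control hairpin (shSCR) or a hairpin that targets CerS4, a ceramide synthase (shCerS4). From each cell line 1 library was made from an anti-Caprin-1 precipitate and 1 from an IgG precipitate, the background control, giving 4 libraries and 1 per group. The study asked which mRNAs are bound by the RNA-binding protein Caprin-1 when lipid metabolism is altered, and its primary comparison was Caprin-1 precipitates of shCerS4 against shSCR cells. Whether a line was 1 clone or a pool was not given in the sources used here, and Cers4 itself was not analysed here, so the knockdown was not checked.

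An integrin is a heterodimer of 1 α and 1 β subunit, and the pairing sets which matrix protein it binds. The β1 subunit pairs with the widest range of α subunits, among them the collagen receptor α2, the laminin receptors α3 and α6, and the fibronectin receptor α5. The αv subunit pairs with β1, β3, β5 and β6 to bind ligands that carry the RGD tripeptide, including vitronectin, fibronectin and, for αvβ6, latent TGF-β. The β4 subunit pairs with α6 alone, forms hemidesmosomes and anchors epithelial cells to laminin. In mammary carcinoma these receptors are known for their parts in adhesion, migration and metastatic growth.

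The libraries had estimated depths of 19.7 to 27.0 M reads, and values are read counts scaled to the library total (CPM) and summed over the transcript entries of a gene. Differences are log2 ratios scaled to the library total, with a 95% counting interval in brackets. No significance test was made, since each group held a single library, and the intervals cover counting error alone, not variation between cultures or precipitations. A gene was called higher or lower when its ratio reached 2-fold, a log2 ratio of 1, and its interval excluded 0. The 10283 genes that averaged 5 CPM or more were compared, 9 of them integrin members, and the remaining one, Itgb6, had a mean of 4.17 CPM and is described by its values only. Epithelial markers were abundant, with 7 of 8 present and a summed level of 4025 to 9714 CPM, while Krt5 had no entry. Of 9 leukocyte markers 2 were present (Itgb2 and Cd68, summed 104 to 145 CPM), and Ptprc, Itgal, Itgam and Itgax had no entry. Fibroblast markers (4 of 6) summed to 20.8 to 66.6 CPM, nearly all of it Pdgfra, and endothelial and platelet markers summed to under 2 CPM in every library. The part of these markers in the integrin values was not tested, and in RNA from bulk cells a smaller share of cells expressing a gene cannot be told apart from less RNA per cell.

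**Figure D1:**
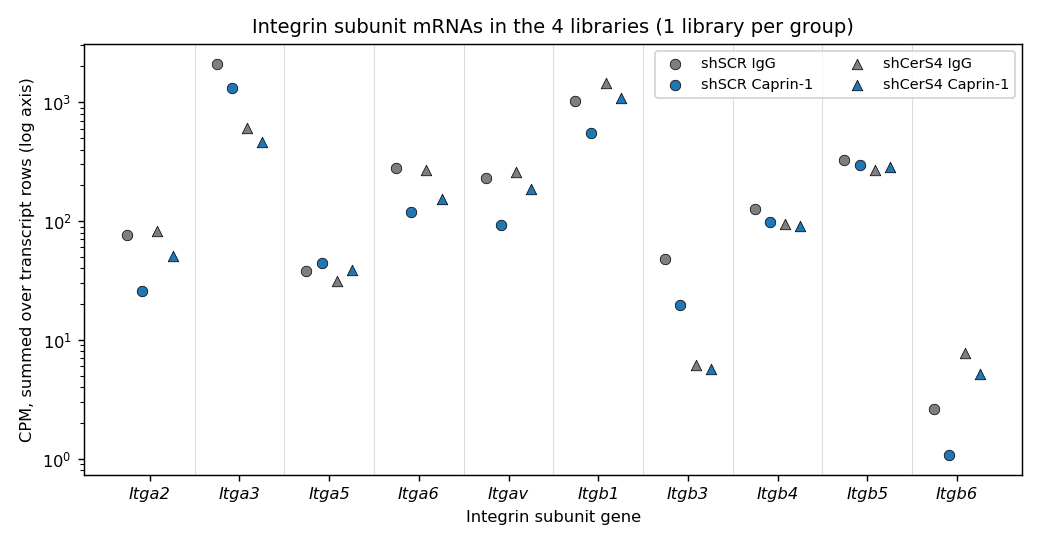
Level of each integrin subunit mRNA in the 4 libraries, in CPM on a log axis; circles are shSCR and triangles shCerS4 cells, grey IgG and blue Caprin-1 precipitates, each point 1 library. Itga3 and Itgb3 lie lower in both shCerS4 libraries than in both shSCR libraries, Itgb1 and Itgb6 lie higher, Itgb4 and Itgb5 lie slightly lower, and Itga2, Itga5, Itga6 and Itgav overlap between the cell lines. Heights of different genes are not comparable, since CPM is not corrected for transcript length.

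shCerS4 and shSCR cells were first compared within Caprin-1 precipitates. No library of RNA before precipitation was in the series, so values are shares of precipitated RNA and not mRNA levels of the cells. Itga3 and Itgb3 mRNAs were lower in shCerS4 cells past 2-fold and Itgav was higher. With scaling to the library total, Itga2 and Itgb1 stood within a few percent of a doubling without reaching it. Itga3 was 2.84-fold and Itgb3 3.43-fold lower, and Itgav was 2.02-fold higher. The other 4 compared members (Itga5, Itga6, Itgb4, Itgb5) differed by 1.03-fold to 1.29-fold. Thus 1 of 9 members was higher, where 6.25% of all compared genes were, and 2 of 9 were lower, where 4.95% were. The 3 other scalings turned those shares of all genes to 4.3% to 4.71% higher and 5.74% to 6.21% lower. By a 1.5-fold rule Itga2 and Itgb1 joined Itgav, making 3 of 9 higher beside 19.2% of all genes, and the same 2 were lower beside 10.9%. The members had a median log2 ratio of −0.04, beside 0.15 over all genes.

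Itga3 encodes the α3 subunit, which with β1 forms a receptor for laminins of the epithelial basement membrane. It stood at 2114 CPM in the shSCR IgG library, 1313 CPM in shSCR Caprin-1, 611 CPM in shCerS4 IgG and 462 CPM in shCerS4 Caprin-1. Both shCerS4 libraries were below both shSCR libraries. The log2 ratio of shCerS4 over shSCR was −1.51 [−1.54, −1.48] with Caprin-1, and 204 of the 10283 genes had a lower one. With IgG it was −1.79 [−1.82, −1.76], and 139 genes had a lower one.

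Itga3 lies on chromosome 11 at 95044475 to 95076844 (GRCm38), and Itgb1 on chromosome 8 at 128685654 to 128733579. The upstream sequence of both is shown because they are the 2 members with the most reads and differ in opposite directions between the cell lines. Each run is the 250 bases before a start listed for the gene, from RefSeq (build GRCm38.p6), chr11:95076715-95076964 on the minus strand for the first of 2 listed Itga3 starts and chr8:128685404-128685653 on the plus strand for Itgb1. The widest Itga3 annotation begins further upstream, so 130 bases of the Itga3 run lie within it. Capitals mark matches, on either strand, to the GC box GGGCGG or the TEAD motif GGAATG; the AP-1 motif TGANTCA and the TATA box TATAAA were also searched and had no match in either.
Itga3: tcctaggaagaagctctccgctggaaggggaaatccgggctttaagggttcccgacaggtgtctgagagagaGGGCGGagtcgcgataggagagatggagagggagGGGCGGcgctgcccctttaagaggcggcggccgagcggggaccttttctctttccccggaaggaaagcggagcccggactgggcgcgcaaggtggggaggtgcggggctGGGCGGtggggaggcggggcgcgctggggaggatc
Itgb1: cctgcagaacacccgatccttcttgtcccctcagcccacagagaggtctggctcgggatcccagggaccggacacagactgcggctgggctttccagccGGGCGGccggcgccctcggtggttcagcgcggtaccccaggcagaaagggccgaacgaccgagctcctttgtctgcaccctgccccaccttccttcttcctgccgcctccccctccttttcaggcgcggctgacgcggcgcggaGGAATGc
Itga3 had 3 GC boxes, at 178, 144 and 35 bases before the listed start, and Itgb1 had 1, at 151 bases, and a TEAD match at 7 bases; no matches overlapped. Of 32851 promoters of the same length, 32.7% held the GC box, 12.6% the TEAD motif, 6.75% the AP-1 motif and 12.4% the TATA box. The GC content was 67.6% for Itga3 and 68% for Itgb1, beside a median of 52.4%. The second listed Itga3 start, not shown, had 1 GC box, at 246 bases, and a GC content of 50.8%. Promoters were listed for 7 of the 10 members. Among the other 5 of these, Itga5 held 2 and Itgb5 3 GC boxes, Itga2, Itgav and Itgb6 held none, and no listed member held an AP-1 match or a TATA box. A match describes letters only and shows no binding, and the data hold no measure of transcription.

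Itgb3 encodes β3, the partner of αv in the vitronectin receptor αvβ3. It stood at 47.9 CPM in shSCR IgG, 19.5 CPM in shSCR Caprin-1, 6.1 CPM in shCerS4 IgG and 5.68 CPM in shCerS4 Caprin-1, from 949, 527, 120 and 140 estimated reads. The shCerS4 libraries were close to each other and both far below the shSCR libraries. The log2 ratio was −1.78 [−2.06, −1.51] with Caprin-1. With IgG it was −2.97 [−3.26, −2.70], a 7.82-fold difference, and 24 of 10283 genes had a lower ratio. Its αv partner did not share this direction. Markers of cell type also differed between the lines. Krt8, an epithelial keratin gene, was lower in shCerS4 cells at −1.30 with Caprin-1 and −1.12 with IgG, and the macrophage marker Cd68 stood at −1.75 and −0.79. The epithelial cadherin gene Cdh1 was higher at 1.06 with Caprin-1 and stood at 0.69 with IgG, and Epcam stood at 0.12 and 0.28. The 7 epithelial markers summed to 5686 and 9714 CPM in the shSCR IgG and Caprin-1 libraries and to 4025 and 5994 CPM in the shCerS4 ones. The 3 with a ratio below 0 in both precipitates were the most abundant, Krt18, Krt8 and Krt7. The other 4, Cdh1, Epcam, Cldn7 and Krt14, were above 0 in both, and Cldn7 was called higher with IgG at 1.09. The median log2 ratio of the 7 was 0.12 with Caprin-1 and 0.28 with IgG. The part of the epithelial markers in the lower Itga3 and Itgb3 values was not tested.

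Itgav, the α subunit shared by the RGD-binding receptors, stood at 229.7 CPM in shSCR IgG, 92.8 CPM in shSCR Caprin-1, 259 CPM in shCerS4 IgG and 187 CPM in shCerS4 Caprin-1. The IgG libraries were close and the shSCR Caprin-1 library was the lowest. The log2 ratio was 1.01 [0.94, 1.08] with Caprin-1 and 0.17 [0.12, 0.23] with IgG. The Caprin-1 ratio of Itgav was 0.87 when scaled by the trimmed mean, 0.88 by the median of ratios and 0.91 by the upper quartile, and it was then no longer called.

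Itga2, the collagen-binding α2 subunit, had the same arrangement, at 76.9 CPM in shSCR IgG, 25.6 CPM in shSCR Caprin-1, 83.3 CPM in shCerS4 IgG and 51.2 CPM in shCerS4 Caprin-1. Its log2 ratio was 1.00 [0.86, 1.13] with Caprin-1, a 1.996-fold difference just short of the threshold, and 0.11 [0.01, 0.22] with IgG. Itga2 lies on chromosome 13 at 114833081 to 114932100, only 26.0 kb from its paralog Itga1 (114958079 to 115101964), which encodes another collagen-binding α subunit. Itga1 had the opposite direction, at −0.97 [−1.27, −0.68] with Caprin-1 and −1.39 [−1.65, −1.15] with IgG.

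Itgb1, the shared β1 subunit, stood at 1017 CPM in shSCR IgG, 552 CPM in shSCR Caprin-1, 1457 CPM in shCerS4 IgG and 1092 CPM in shCerS4 Caprin-1. Both shCerS4 libraries were above both shSCR libraries. The log2 ratio was 0.98 [0.96, 1.01] with Caprin-1 and 0.52 [0.49, 0.54] with IgG. Neither precipitate gave a ratio that reached 2-fold, and both ratios had the opposite sign to those of its laminin-receptor partner Itga3.

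Itgb6 encodes β6, which with αv binds latent TGF-β. It stood at 2.62 CPM in shSCR IgG, 1.07 CPM in shSCR Caprin-1, 7.83 CPM in shCerS4 IgG and 5.15 CPM in shCerS4 Caprin-1, from 52, 29, 154 and 127 estimated reads. Both shCerS4 libraries were above both shSCR libraries, with log2 ratios of 2.24 [1.67, 2.90] for Caprin-1 and 1.57 [1.12, 2.06] for IgG. It was left out of the counts above for its low level.

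The remaining members were close between the cell lines. Itga6, the laminin-binding partner of β1 and β4, stood at 280.1 CPM in shSCR IgG, 118 CPM in shSCR Caprin-1, 267 CPM in shCerS4 IgG and 153 CPM in shCerS4 Caprin-1, and the precipitates separated its libraries more than the cell lines did. Its log2 ratio was 0.37 [0.30, 0.43] with Caprin-1 and −0.07 [−0.12, −0.01] with IgG. Itgb4, its hemidesmosomal partner, stood at 126 and 98.8 CPM in the shSCR IgG and Caprin-1 libraries and at 94.8 and 90.7 CPM in the shCerS4 ones, ratios of −0.42 [−0.50, −0.33] with IgG and −0.12 [−0.21, −0.04] with Caprin-1. Itgb4 overlaps the measured gene Galk1 in the annotation, and the strand of the reads was not given in the sources used here.

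Itga5, the α subunit of the fibronectin receptor α5β1, lay between 31.6 CPM (shCerS4 IgG) and 44.1 CPM (shSCR Caprin-1), with ratios of −0.19 [−0.32, −0.07] with Caprin-1 and −0.27 [−0.43, −0.12] with IgG. Itgb5, the partner of αv in a vitronectin receptor, lay between 269 CPM (shCerS4 IgG) and 326 CPM (shSCR IgG). Its ratios were −0.04 [−0.09, 0.00] with Caprin-1 and −0.28 [−0.33, −0.22] with IgG. Both Itgb4 and Itgb5 were lower in each shCerS4 library than in either shSCR library, by amounts well short of the call rule.

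In the IgG precipitates 2 of 9 members, again Itga3 and Itgb3, were lower past 2-fold, where 5.34% of all genes were, and none was higher, where 5.69% were, or 6.03% to 6.25% and 4.38% to 4.62% under the other scalings. By a 1.5-fold rule the same 2 were lower, beside 11.7% of all genes, and none was higher, beside 17.3%. The member median was −0.27, beside 0.10 over all genes. The IgG and Caprin-1 comparisons share no library, but both set the same shCerS4 line against the same shSCR line. They are therefore not independent replicates of the knockdown.

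**Figure D2:**
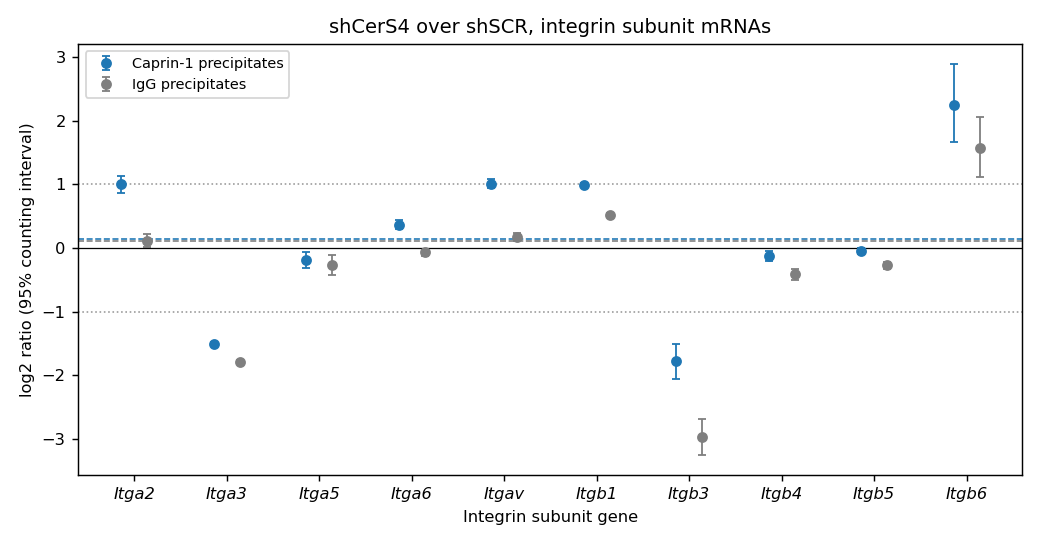
Log2 ratio of shCerS4 over shSCR for each integrin subunit in Caprin-1 (blue) and IgG (grey) precipitates, with 95% counting intervals; each point compares 2 libraries. Dashed lines are the medians of all compared genes and dotted lines mark 2-fold. Itga3 and Itgb3 are below −1 in both precipitates, Itgb6 is above 1 in both, and Itga2, Itgav and Itgb1 lie near 1 with Caprin-1 and at 0.11, 0.17 and 0.52 with IgG.

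Caprin-1 and IgG precipitates were next compared within each cell line. In shSCR cells most integrin mRNAs held a smaller share of the Caprin-1 library than of the IgG library. The ratio was lowest for Itga2, at −1.58 [−1.72, −1.45], a 2.998-fold difference, followed by Itgav at −1.31 [−1.38, −1.24], Itgb3 at −1.29 [−1.45, −1.14] and Itga6 at −1.24 [−1.31, −1.18]. These 4 of 9 members were lower past 2-fold, where 13% of all genes were, and none was higher, where 1.69% were. Under the 3 other scalings the same 4 members were called, while the shares of all genes were 8.28% to 8.93% lower and 4.36% to 4.84% higher. Itgb1 stood at −0.88, Itga3 at −0.69, Itgb4 at −0.36 and Itgb5 at −0.14, a value that lay above 0 under the 3 other scalings. Itga5 was the exception, at 0.21 [0.08, 0.34]. By a 1.5-fold rule Itga3 and Itgb1 were also lower, making 6 of 9 beside 27.5% of all genes, and none was higher, beside 11.4%. The member median was −0.88, beside −0.13 over all genes. Because scaling was to the library total, a ratio below 0 means a smaller share of the library and not less RNA.

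In shCerS4 cells the same ratio lay between −0.81 and 0.29 for all 9 members. None passed 2-fold, where 8.02% of all genes were lower and 0.934% higher, or 5.22% to 5.51% and 2.11% to 2.36% under the other scalings. Itga6 was lowest at −0.81 [−0.87, −0.75], then Itga2 at −0.70 [−0.81, −0.59], Itgav at −0.47, Itgb1 at −0.42 and Itga3 at −0.40. Itgb3 stood at −0.10 [−0.47, 0.26], an interval that includes 0, as did that of Itgb4 at −0.06 [−0.15, 0.03]. Both values lay above 0 under the other scalings. Itga5 was again the highest at 0.29 [0.14, 0.44], and Itgb5 stood at 0.09 [0.04, 0.14]. By a 1.5-fold rule 2 of 9, Itga2 and Itga6, were lower, beside 22.6% of all genes, and none was higher, beside 8.69%. The member median was −0.40, beside −0.11 over all genes.

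**Figure D3:**
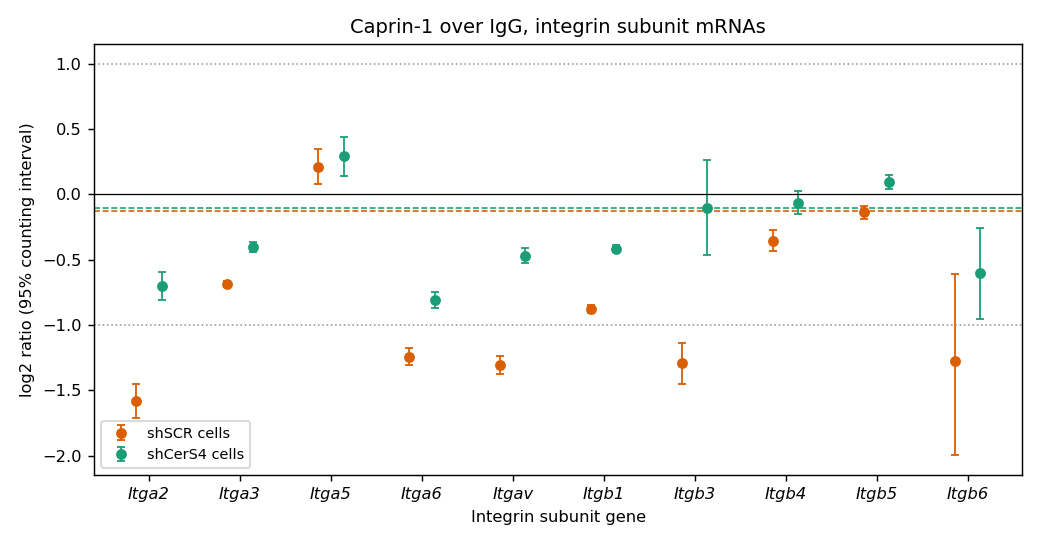
Log2 ratio of Caprin-1 over IgG for each integrin subunit in shSCR (orange) and shCerS4 (green) cells, with 95% counting intervals; each point compares 2 libraries. Dashed lines are the medians of all compared genes and dotted lines mark 2-fold. For every gene the green point is above the orange one, by 0.08 for Itga5 up to 1.19 for Itgb3, and Itga5 alone is above 0 in both cell lines, joined by Itgb5 under the 3 other scalings.

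The change of this ratio between the cell lines was then taken as the difference of the 2 values, which is the same quantity as the Caprin-1 minus the IgG ratio of shCerS4 over shSCR. It was above 0 for all 9 compared members, while 56.0% of all genes were above 0. The member median was 0.43, beside 0.04 over all genes. Of the lists described below, 4 of 5 other integrin subunits were above 0, with a median of 0.37. Of matrix and latent TGF-β ligands 16 of 20 were above 0, with a median of 0.36. Of activators, adaptors and signalling genes 23 of 33 were, with 0.13, and of hemidesmosome partners and tetraspanins 3 of 8, with −0.03. Itgb3 was the member called, at 1.19 [0.81, 1.57], and 30 of 10283 genes had a higher difference. That is 1 of 9 members, where 0.632% of all genes were higher, and no member was lower, where 0.35% were, or 0.467% to 0.535% and 0.428% to 0.477% under the other scalings. Itga2 at 0.88 [0.72, 1.05] and Itgav at 0.84 [0.75, 0.93] had 97 and 122 genes above them. By a 1.5-fold rule these 3 of 9 were higher, beside 4.24% of all genes, and none was lower, beside 2.62%. Itgb1 stood at 0.47, Itga6 at 0.43, Itgb4 at 0.29, Itga3 at 0.28 and Itgb5 at 0.23, and the interval of Itga5 included 0 (0.08 [−0.12, 0.28]). Itgb6, not counted, stood at 0.67 [−0.06, 1.41]. All 9 summed values stayed above 0 under each of the 3 other scalings. Minor transcript entries of Itga3, Itga6, Itgb4 and Itgb5, read singly below, stood below 0.

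Across genes a longer genomic span went with a lower Caprin-1 over IgG ratio. Of the 10 members 9 are longer than the median gene, with spans up to 124 kb (Itgb6) beside a median of 23.5 kb. Itga5, the member with the highest ratio in both cell lines, is the shortest at 22.5 kb. Against this trend, Itgb5 had the next highest ratio in both and is the longest of the 9 compared members at 119.7 kb. Over 10277 genes with a span the Spearman correlation of span with the ratio was −0.54 in shSCR and −0.48 in shCerS4 cells, and with the difference between cell lines 0.29. Over the 10 members, Itgb6 included, the 3 values were −0.52, −0.49 and 0.44. For shCerS4 over shSCR the correlation over all genes was 0.14 with Caprin-1 and −0.02 with IgG. Over the 10 members it was 0.70 and 0.49. These correlations are across genes, which share the libraries and are not replicates. Among the 4373 genes whose span lay in the range of the 9 compared members (22.5 to 119.7 kb), the median ratio was −0.41 for shSCR and −0.31 for shCerS4 cells, and the median difference was 0.10, with 64.9% above 0. The members' medians were −0.88, −0.40 and 0.43. The part of span in the members' values was not tested.

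Transcript entries of the members were read singly. Itga2, Itgav, Itgb1 and Itgb3 had 1 entry and the other 6 genes had several, 17 entries in all, with no transcript identifier, so an entry could not be tied to an isoform. Reads were divided among entries in the deposited values, so the shares are estimates. Below 40 CPM only 28.9% to 31.4% of entry values were whole reads to within 0.05. The counting intervals of entries leave out the error of this division. Between the cell lines the direction of the summed Itga3 value was shared by its 3 entries in both precipitates. The main one, with 87.5% to 90.5% of the gene in each library, had a shCerS4 over shSCR ratio of −1.48 with Caprin-1 and −1.79 with IgG. The second had −1.90 and −1.68 and the third −0.97 and −2.02. In the Caprin-1 over IgG ratio they differed: the third stood at 0.23 [−0.01, 0.46] in shCerS4 cells against −0.40 for the gene. In the change of that ratio between cell lines the second stood at −0.23 [−0.38, −0.08] and the third at 1.05 [0.79, 1.32], against 0.28 for the gene.

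The 2 Itga6 entries differed. The main entry stood at 231 CPM in shSCR IgG, 95.4 CPM in shSCR Caprin-1, 217 CPM in shCerS4 IgG and 137 CPM in shCerS4 Caprin-1. The minor entry stood at 49.1, 23.0, 50.1 and 15.2 CPM in the same order. The minor entry therefore made up 17.5%, 19.5% and 18.7% of the gene in the first 3 libraries and 9.98% in shCerS4 Caprin-1. With Caprin-1 the shCerS4 over shSCR ratio was 0.53 [0.45, 0.60] for the main and −0.60 [−0.79, −0.41] for the minor entry, and with IgG it was −0.09 and 0.03. The Caprin-1 over IgG ratio changed between cell lines by 0.62 [0.52, 0.71] for the main entry. For the minor entry it changed by −0.62 [−0.85, −0.40]. The gene Itga6 is known to encode 2 splice forms that differ in the cytoplasmic tail.

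The Itgb6 entries kept a fixed proportion, 74.5% to 25.5%, in every library, so they hold no information beyond their sum. The minor Itgb4 entry made up 0.481% of the gene in shSCR IgG and 3.87% to 5.27% in the other 3 libraries. Its Caprin-1 over IgG ratio changed between cell lines by −2.76 [−3.69, −1.83], with only 0.61 CPM in shSCR IgG. For the minor Itgb5 entry, with a mean of 8.01 CPM, the change was −0.99 [−1.42, −0.56]. The main entries of Itga5 and Itgb5 held at least 98.7% and 96.6% of their genes.

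**Figure D4:**
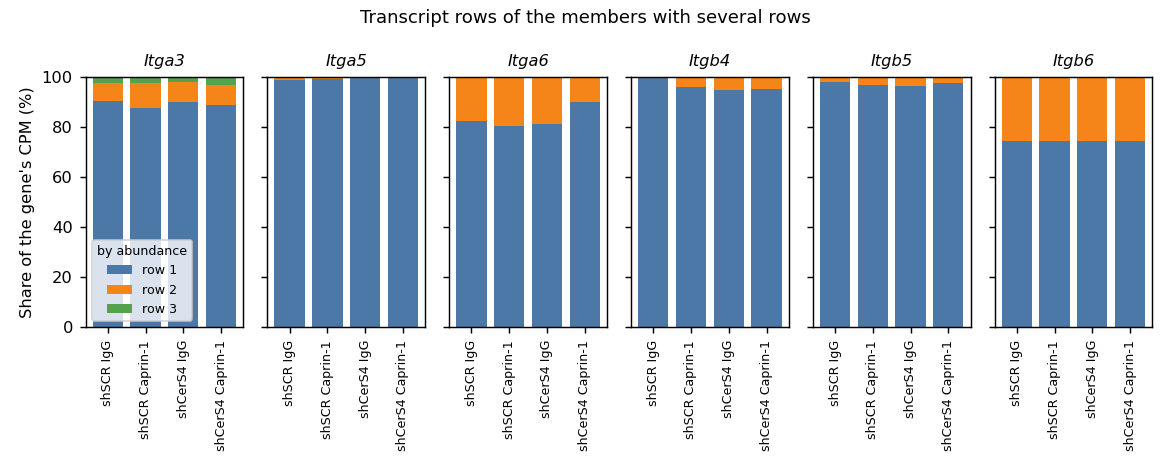
Share of each gene's CPM, in percent, held by each transcript entry (row) in the 4 libraries, for the 6 members with several entries, ordered by abundance. The minor Itga6 entry holds 17.5% to 19.5% in 3 libraries and 9.98% in shCerS4 Caprin-1, and the Itgb6 shares are 74.5% and 25.5% throughout.

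Likeness of profile was measured by the Euclidean distance of log2 values after each gene was centred on its own mean over the 4 libraries, and ranged from 0.22 to 4.29 between members. The closest pairs were Itgb4 with Itgb5 at 0.22, Itga2 with Itgav at 0.26, Itga5 with Itgb5 at 0.29 and Itgav with Itgb1 at 0.34. Itga3 and Itgb3 were each other's nearest members, at 0.87, and Itgb6 was nearest to Itgb1, at 1.20. Among the 7727 genes that averaged 20 CPM or more, the profiles nearest to that of Itgb1 were those of Asph (0.07), Spcs3 (0.07), Arhgef28 (0.08), Nfxl1 (0.09) and Ecpas (0.09). Nearest to Itgb6, the member with the largest shCerS4 over shSCR ratio in size with Caprin-1, were Fosl2 (0.25), Phldb2 (0.30), Lrrn4cl (0.35), Pfkfb3 (0.40) and Sema3e (0.43). With 4 libraries such distances are descriptions.

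Of 16 other integrin subunits 8 had entries and 5 of these passed 5 CPM. Itgb7, a β subunit of lymphocyte integrins, was lower in shCerS4 cells at −1.23 with Caprin-1 and −1.60 with IgG, and Itga7, a laminin-binding α subunit, was higher at 1.12 and 1.18. Itga8, an RGD-binding α subunit, stood at −0.36 and −0.90. Thus 1 of 5 was higher and 1 lower with Caprin-1, beside 6.25% and 4.95% of all genes. With IgG 1 was higher and 2 lower, Itgb7 and Itga1, beside 5.69% and 5.34%. In shSCR cells Itga1 at −1.12 and Itga8 at −1.01 were lower with Caprin-1 than with IgG, beside 13% of all genes. None was higher, beside 1.69%. In shCerS4 cells none was called, beside 8.02% lower and 0.934% higher. Itgb2, the leukocyte β subunit, lay between 84.0 and 106 CPM in the 4 libraries, with ratios of 0.14 and 0.08, although Itgal, Itgam, Itgax and Itgad, its α partners, had no entry. Itga2b, Itga10 and Itgb8 stood at no more than 2.42 CPM in any library.

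Activators, adaptors and signalling proteins that act on integrin tails numbered 33 compared genes, and none was past 2-fold between the cell lines with Caprin-1, beside 6.25% of all genes higher and 4.95% lower. The list median was 0.15, equal to that of all genes. The most abundant was Tns4, a tensin, at −0.56, and the largest ratios in size were Lims1, encoding the adaptor PINCH1, at 0.97, Fermt1, encoding the integrin activator kindlin-1, at 0.81 and the tensin gene Tns3 at −0.76. With IgG 1 of 33 was lower, Tns3 at −1.02, beside 5.34% of all genes, and none was higher, beside 5.69%. In shSCR cells 7 of 33 were lower with Caprin-1 than with IgG, beside 13% of all genes, among them the talin genes Tln1 and Tln2, Fermt1, Tns1 and Tns3.

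Matrix and latent TGF-β ligands of integrins numbered 20 compared genes, of which 6 were higher past 2-fold with Caprin-1 (Postn, Ccn2, Thbs1, Ccn1, Col4a2 and Adam9) and 1 lower (Tgfb1), beside 6.25% and 4.95% of all genes, with a median of 0.52 beside 0.15 over all genes. Postn, which encodes the αv ligand periostin, stood at 1.06 and 1.55 CPM in the shSCR IgG and Caprin-1 libraries and at 34.4 and 39.1 CPM in the shCerS4 ones, through which alone it passed 5 CPM. Ccn2 stood at 2.12 [2.03, 2.21] with Caprin-1 and 1.91 [1.81, 2.02] with IgG. Thbs1, encoding thrombospondin-1, stood at 1.51 [1.45, 1.56] and 0.96 [0.92, 1.01]. The most abundant ligand gene, Spp1, which encodes the RGD protein osteopontin, was at −0.38 in both. With IgG 3 of 20 were higher (Postn, Ccn1 and Ccn2) and none lower, beside 5.69% and 5.34% of all genes. The median was 0.07, beside 0.10. Without Postn the counts were 5 of 19 higher and 1 lower with Caprin-1 and 2 of 19 higher with IgG.

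Hemidesmosome partners and tetraspanins, which associate with laminin-binding integrins, numbered 8 compared genes, and none was past 2-fold between the cell lines in either precipitate, from which nothing is read in so short a list when 4.95% to 6.25% of all genes were called each way. Within the cell lines Plec and Dst, the plakin genes that link β4 to keratin filaments, were lower with Caprin-1 than with IgG past 2-fold in both. These 2 of 8 stand beside 13% of all genes lower in shSCR and 8.02% in shCerS4 cells. Dst was at −1.84 [−2.00, −1.69] for shSCR and −1.29 [−1.43, −1.16] for shCerS4 cells. The tetraspanin genes were on the other side, with Cd63 at 1.06 and 0.86 and Tspan4 at 0.93 and 0.93. Cd63 was the 1 of 8 called higher in shSCR cells, beside 1.69% of all genes. None was called higher in shCerS4 cells, beside 0.934%.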

How the data were processed

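The deposited table held CPM values, made by the authors per transcript with 0.0001 added to each, although its name calls them raw counts. Per the submitters' processing notes, reads were aligned to mm10 with STAR in Partek, with no versions. Per the labels' protocols, RNA was extracted with Qiazol and polyadenylated RNA went into SMARTER mRNA libraries. The added value was subtracted and the 24393 transcript entries were summed per symbol. The CPM worth of 1 read was estimated from the spacing of low values, giving depths of 19.8 M (IgG) and 27.0 M reads (Caprin-1) for shSCR cells and 19.7 M and 24.7 M for shCerS4 cells, so 3 reads are 0.111 to 0.152 CPM. Below 40 CPM, 79.8% to 81.2% of gene values were whole reads to within 0.05.

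Ratios used 0.5 added reads. Intervals were exact conditional binomial intervals of rounded estimated reads, or delta-method intervals for the difference of 2 ratios. These are amplified reads without molecular identifiers, so they cover counting error only. The scripts (Python 3.11.15, NumPy 2.4.6, pandas 2.3.3, SciPy 1.17.1) were tested on simulated data. Positions and promoters are RefSeq's for GRCm38.p6. Transcript lengths were not used, so levels of different genes were not compared. All members and other integrin subunits were named, and from each further list the most abundant gene and the 3 largest Caprin-1 ratios between cell lines in size; others were named because they were called, and 1 result within these lists is not reported here. Members and lists were chosen with earlier results of these data known. Alternatives were 3 other scalings (trimmed-mean, median-of-ratios, upper-quartile), filters of 1 and 20 CPM and none, 5 added reads, the most abundant transcript entry, a 1.5-fold rule and no interval condition.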

Additional observations from a re-analysis of the deposited data

Results flagged for a closer look

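Itga6 went in opposite directions between the cell lines in the 2 precipitates, at a log2 ratio of 0.37 with Caprin-1 and −0.07 with IgG, each with an interval that excluded 0. Itgb5 went in opposite directions between Caprin-1 and IgG in the 2 cell lines, at −0.14 for shSCR and 0.09 for shCerS4 cells. The Itgb5 value in shSCR cells lay above 0 under the 3 other scalings, so its opposition depends on scaling. With 1 library per group neither difference was tested.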

How the results depend on the processing

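No paired analysis was possible because no groups shared 2 replicate numbers, each holding 1 library; a fit of cell line and precipitate as additive terms, with their interaction as the error, was not run. The calls in all 5 comparisons were the same genes with 5 added reads, with the most abundant transcript entry and without the interval condition. The 3 other scalings changed 1 call: Itgav was no longer higher with Caprin-1, which left 2 called members. They moved the median of all genes by −0.14, −0.13 and −0.11 for shCerS4 over shSCR with Caprin-1, and by 0.20, 0.17 and 0.18 for Caprin-1 over IgG in shSCR cells. A filter of 20 CPM dropped Itgb3, whose mean is 19.8 CPM, which left 1 called member in the IgG precipitates and 0 in the difference between cell lines, since fewer genes were compared. With a filter of 1 CPM or none Itgb6 was added, higher in both precipitates of shCerS4 cells and lower with Caprin-1 than with IgG in shSCR cells. A 1.5-fold rule called 5 members with Caprin-1 (Itga2, Itgav and Itgb1 higher, Itga3 and Itgb3 lower), 2 in the Caprin-1 over IgG ratio of shCerS4 cells (Itga2 and Itga6 lower) and 3 in the difference (Itga2, Itgav and Itgb3 higher). No called ratio of a member reversed in sign. Depth limits Itgb6 and, in shCerS4 cells, Itgb3, which rested on 29 to 154 and on 120 and 140 estimated reads.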
